A study of Mus musculus with 10 samples.

Results

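Adipogenesis, the formation of fat cells from precursor cells, is driven by a cascade of transcription factors, and 10 of these factors were examined here among the 14623 genes of a single-cell count table. They were Pparg, Cebpa, Cebpb, Cebpd, Ebf1, Ebf2, Klf4, Klf9, Nfia and Nfib, chosen by name, and all 10 were in the table. The cells came from the stromal vascular fraction (SVF) of inguinal white adipose tissue (iWAT), which holds the precursor, vascular and immune cells of the fat pad but not its floating adipocytes. The comparison was between a lean Bbs8 KO (Bbs8-/-) mouse and a lean Bbs8 WT (Bbs8+/+) mouse, both 7 weeks old and without further treatment in the labels. Bbs8, now named Ttc8, codes for a subunit of the BBSome, a protein coat that carries membrane proteins out of the primary cilium, and it was lost in every cell of the knockout mouse and not only in the precursors. Messenger RNA was captured in the wells of Seq-Well S3 arrays and counted as unique molecular identifiers (UMIs), 1 for each captured molecule. The series describes a single mouse per genotype, while the labels list 5 samples and the table holds 5 barcode sets, groups of cells with a shared code, for each. Whether the sets came from more than 1 animal could not be settled, and they were treated as technical. No difference between the mice could thus be checked against replicate mice, and no p-value was computed.

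In the textbook order of adipogenesis, CEBPB and CEBPD appear within hours of the hormonal stimulus, together with Kruppel-like factors such as KLF4. They help to switch on PPARG and CEBPA, which then maintain each other and activate the genes of lipid uptake, lipid storage and adipokine secretion. Early B cell factors (EBF1 and EBF2) and nuclear factor I proteins (NFIA and NFIB) mark and open the DNA regions of adipocyte genes, and EBF2 and NFIA are best known for this in brown and beige fat. Precursors in iWAT are commonly divided into stem-like P1 cells (Dpp4 and Pi16), committed P2 preadipocytes (Col15a1 and Icam1) and P3 regulatory cells (F3 and Mmp3).

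The table held 8985 Bbs8 KO cells with 3144195 UMIs and 1929 Bbs8 WT cells with 715989 UMIs, and the median cell had 251 and 278 UMIs. Clusters were built without the 10 factors among their variable features, so that the levels of the factors did not shape the clusters directly. They gave 1991 stromal cells, 1374 of Bbs8 KO with 660308 UMIs and 617 of Bbs8 WT with 284668 UMIs, divided into 668 P1-like cells, 1025 P2-like cells and 298 P3-like cells. The P1-like cluster was led by Pi16 and Smpd3, the P2-like cluster by Fgf10 and Adam12, and the P3-like cluster by Inmt and Igfbp3. The other named classes were endothelial-, pericyte-, mammary epithelium-, macrophage-, monocyte-, dendritic-, T cell-, B cell- and mitotic-like. A further 4 clusters, with 41.7% of the Bbs8 KO and 25.8% of the Bbs8 WT cells, stayed unnamed and were kept out of every class. Ttc8 had 0 UMIs in Bbs8 KO against 5 UMIs in Bbs8 WT, all in a single barcode set (WT4_p2), and 0 UMIs in Bbs8 KO allowed a level of up to 1.17 CPM. Levels in CPM (UMIs of a gene divided by all UMIs of the class and scaled to 1000000) come with exact Poisson 95% intervals that, like all intervals here, cover counting error only.

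The factors were sparse. All cells together held from 66 UMIs of Cebpb to 737 of Ebf1, and stromal cells held 58.6% of the Nfia and 59.1% of the Ebf2 UMIs but 26.2% of the Pparg and 23.9% of the Cebpa UMIs. At an equal depth of 200 UMIs per cell, 78.2% (95% Clopper-Pearson interval 75.7 to 80.6) of 1149 Bbs8 KO stromal cells and 69.6% (65.6 to 73.4) of 559 Bbs8 WT stromal cells had no UMI of any of the 10. A cell without a UMI of a factor was therefore not taken as a cell without the factor, and levels were read from sums over cells. T cell-like cells, a class not known for most of these factors, gave the background: for each factor apart from Ebf1, at most 0.610% of the 983 had a UMI. The plot of levels by class shows each factor on its own scale.

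**Figure D1:**
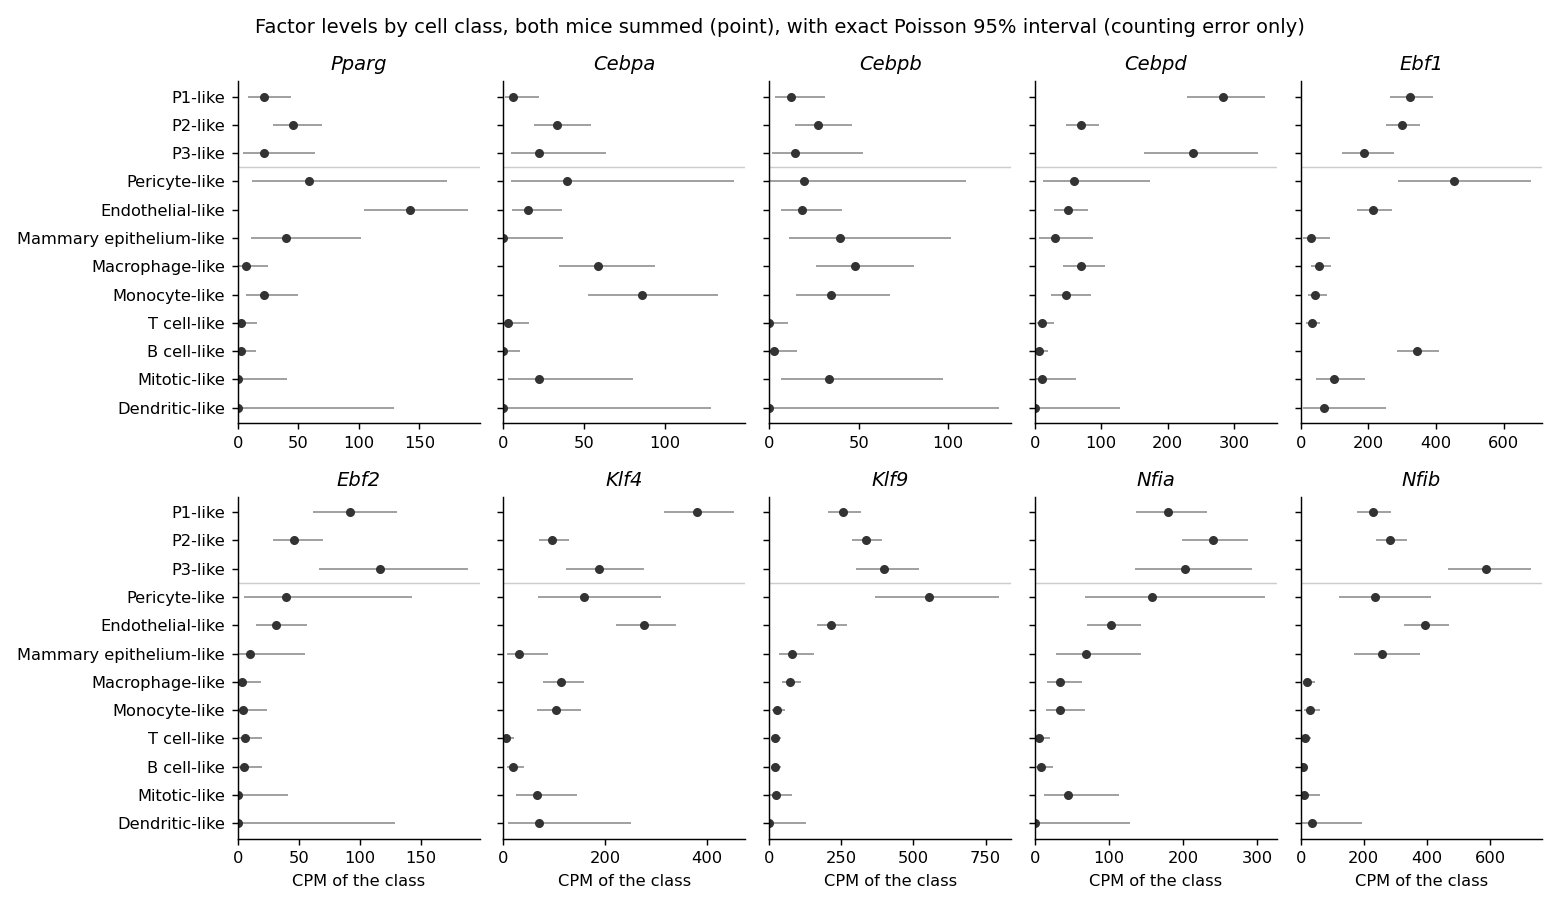
CPM of each factor (x axis, linear, its own range per factor) in 12 cell classes (y axis), with both mice summed; points are levels and lines are exact Poisson 95% intervals. Cebpd and Klf4 lay highest in P1-like cells, Nfib in P3-like cells, Pparg in endothelial-like cells and Cebpa in monocyte-like cells.

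Klf9 was the factor that differed most clearly between the mice. Klf9 (chromosome 19, 23141226 to 23168134 on GRCm38, plus strand) codes for a Kruppel-like zinc finger protein that is induced by glucocorticoids and thyroid hormone and acts upstream of PPARG in cultured preadipocytes. In stromal cells its level was 209 CPM in Bbs8 KO (138 UMIs) against 569 CPM in Bbs8 WT (162 UMIs). The 5 Bbs8 KO sets gave 235, 176, 212, 188 and 237 CPM. The 5 Bbs8 WT sets gave 573, 813, 392, 544 and 520 CPM. Every Bbs8 KO set lay below every Bbs8 WT set. The level was 2.72-fold lower in Bbs8 KO, or a log2 ratio of -1.42 with a pseudocount of 5 CPM and an exact interval of the plain ratio of -1.78 to -1.11. Over 2-fold, in every count of genes, means a log2 ratio past 1 in size with the pseudocount in place. Among the 6483 genes with at least 20 UMIs in stromal cells, 2.68% were over 2-fold lower in Bbs8 KO and 1.31% had all Bbs8 KO sets below all Bbs8 WT sets. Klf9 was the only one of the 9 factors with at least 20 UMIs (Cebpb had 19) to meet either mark. Cebpa, with 21 UMIs, was 2.11-fold lower by its plain ratio but not with the pseudocount (log2 -0.89). The codes of the sets carry numbers that were not explained and could stand for arrays or for animals, and the levels by number were 205 (KO5), 212 (KO6), 631 (WT3) and 535 CPM (WT4).

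The lower level of Klf9 was present in each stromal subtype. In P1-like cells it was 129 CPM in Bbs8 KO against 601 CPM in Bbs8 WT, with sets from 46.7 to 199 CPM and from 531 to 715 CPM that did not overlap, and a log2 ratio of -2.17 (-2.91 to -1.55). In P2-like cells it was 252 and 525 CPM, or a log2 ratio of -1.05 (-1.52 to -0.60), and the Bbs8 WT set WT3_p3 (164 CPM) lay below the Bbs8 KO range of 167 to 322 CPM. In P3-like cells it was 266 and 649 CPM, or a log2 ratio of -1.27 (-2.12 to -0.47), with sets that overlapped (142 to 462 CPM and 393 to 1047 CPM). That interval included 0 in P3-like cells of at least 200 genes (-0.95, -1.97 to 0.06) and in those with no immediate early UMI (-1.09, -2.31 to 0.07). In these classes 5.91%, 4.8% and 6.15% of genes with at least 20 UMIs were over 2-fold lower in Bbs8 KO. In P1-like cells 0.954% of such genes had all Bbs8 KO sets below all Bbs8 WT sets. The share of stromal cells with a Klf9 UMI, at 200 UMIs per cell, was 3.05% (2.13 to 4.21) in Bbs8 KO against 10.02% (7.66 to 12.8) in Bbs8 WT, and without thinning it was 8.22% and 20.6%. The thinned share in T cell-like cells was 0.444% of 675 Bbs8 KO cells and 2.74% of 73 Bbs8 WT cells, where the latter rests on 2 cells. Median depths of the stromal cells were 344 and 345 UMIs, and those of the T cell-like cells 286 and 237 UMIs. Marker lists of the subtypes moved as well. The 10 P2 markers summed to 5569 CPM (sets 5198 to 6163) in Bbs8 KO stromal cells and 8417 CPM (8108 to 9679) in those of Bbs8 WT, and the 10 P3 markers to 2240 CPM (1850 to 2834) and 3537 CPM (3282 to 5101), while the P1 markers (3439 and 3021 CPM) overlapped. The part of these shifts in the level of Klf9 was not tested.

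Outside the stroma, Klf9 was highest in pericyte-like cells, at 552 CPM (367 to 798) in both mice together. The intervals of neighbours overlapped down the order from pericyte-like through P3-like (398 CPM), P2-like (336 CPM), P1-like (256 CPM) and endothelial-like cells (214 CPM), and then dropped to 79.5 CPM or less in the other classes, apart from the endothelial-like interval. This order is of both mice summed, and that of the subtypes differed within each mouse. P1-like cells (129 CPM) lay below endothelial-like cells in Bbs8 KO, and above P2-like cells in Bbs8 WT (601 and 525 CPM). In endothelial-like cells the mice gave 207 and 244 CPM, or a log2 ratio of -0.23 (-1.08 to 0.69), and their sets overlapped. Macrophage-like cells had 54.96 and 149 CPM from 13 and 8 UMIs (log2 -1.36, -2.81 to 0.04), where 5.45% of genes were over 2-fold lower in Bbs8 KO, and pericyte-like cells 479 and 817 CPM from 19 and 9 UMIs (log2 -0.76, -1.99 to 0.56). Whether the ratio differs between stromal and other classes was not tested.

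**Figure D2:**
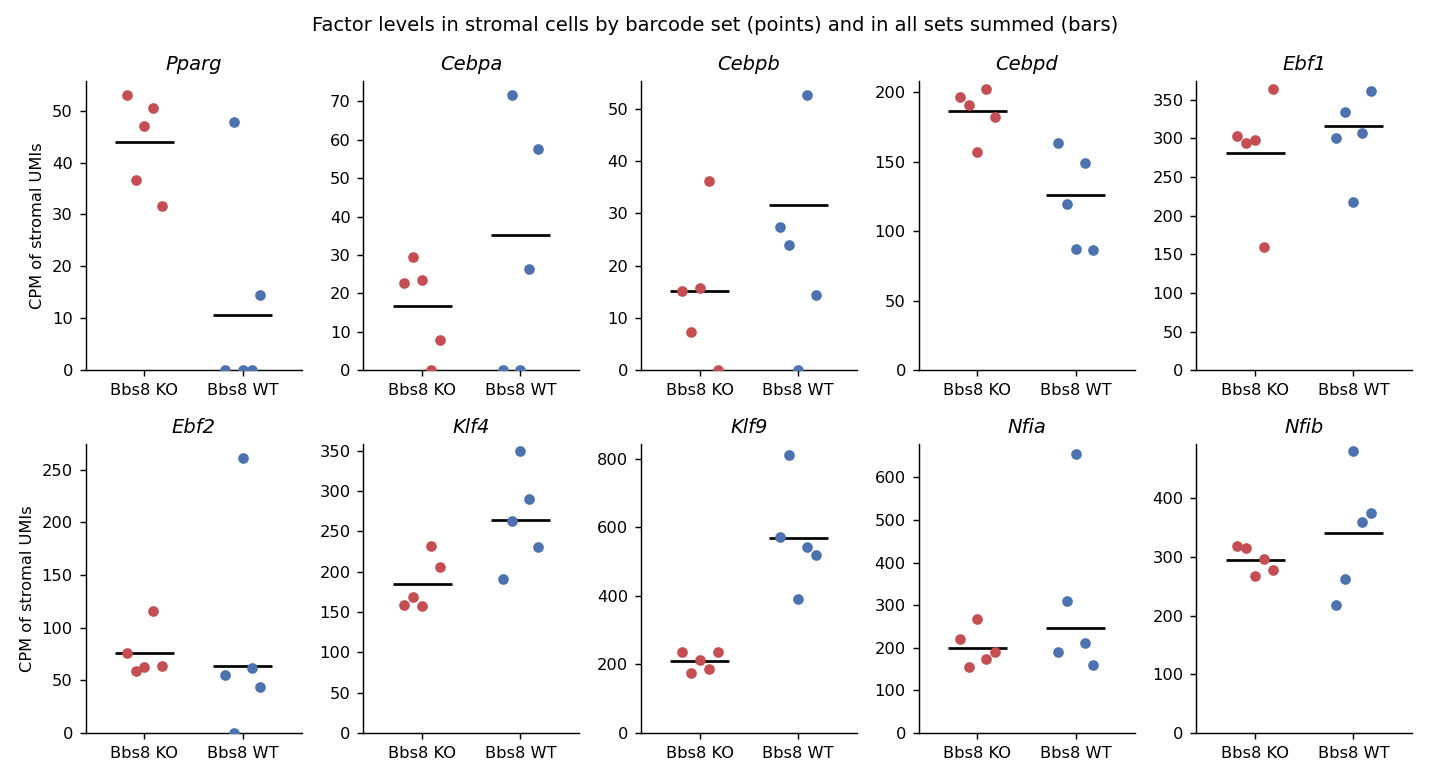
CPM of each factor in stromal cells (y axis, linear from 0, its own range per factor) for the 5 barcode sets of Bbs8 KO and of Bbs8 WT (points) and for all sets of a mouse summed (bars). Klf9 is the only panel in which no Bbs8 KO point (176 to 237 CPM) reaches the lowest Bbs8 WT point (392 CPM).

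Klf4 (chromosome 4, 55527143 to 55532466, minus strand), a zinc finger protein that activates Cebpb early in adipogenesis and is also an immediate early gene in many cells, was a gene of P1-like and endothelial-like cells. Over both mice it was 381 CPM (317 to 454) in P1-like cells, 276 CPM in endothelial-like cells, 188 CPM in P3-like cells and 96.1 CPM (70.4 to 128) in P2-like cells. It was higher in P1-like than in P2-like cells in 10 of 10 barcode sets. The log2 ratio of P2-like over P1-like was -2.49 (-3.39 to -1.85) in Bbs8 KO against -1.37 (-2.14 to -0.66) in Bbs8 WT. Over all stromal cells the Bbs8 KO sets gave 159, 169, 157, 231 and 206 CPM. The Bbs8 WT sets gave 191, 263, 349, 290 and 231 CPM. The ranges overlapped between 191 and 231 CPM, and the log2 ratio was -0.50 (-0.94 to -0.08). In P2-like cells the level was 57.6 CPM in Bbs8 KO (19 UMIs) against 182 CPM in Bbs8 WT (27 UMIs), or a log2 ratio of -1.58 (-2.59 to -0.76) with sets that overlapped. In endothelial-like cells it was 230 and 471 CPM, or a log2 ratio of -1.02 (-1.70 to -0.34), and 6.79% of genes there were over 2-fold lower in Bbs8 KO. P3-like cells went the other way, with 221 and 126 CPM from 20 and 6 UMIs, and the interval of that ratio included 0 (-0.55 to 2.42).

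Klf4 and other immediate early genes are known to respond to tissue digestion. Among stromal cells with no immediate early UMI, the Klf4 log2 ratio was -0.11 (-0.74 to 0.53), so its interval then included 0. It also did so without the barcode set WT4_p2 (-0.40, -0.93 to 0.13) and without integration (-0.38, -0.79 to 0.03). The Klf9 ratio among the cells with no immediate early UMI was -1.70 (-2.22 to -1.25). In P1-like cells without these UMIs it was -3.07 (-4.32 to -2.12) for Klf9 and 0.24 (-0.59 to 1.14) for Klf4. In P2-like cells without them the Klf4 ratio was -1.87 (-3.44 to -0.63), below 0 as it was in all P2-like cells. These subsets dropped cells by genes that respond alongside Klf4, and deeper cells are more likely to hold such a UMI. Fewer counts and a shifted Klf4 ratio were thus partly built in. The part of tissue handling in the level of either gene was not tested.

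Over all cells outside the P1- to P3-like classes, the unnamed clusters included, Klf4 was 82.9 CPM in Bbs8 KO against 167 CPM in Bbs8 WT (log2 -0.97, -1.40 to -0.60). Its Bbs8 KO sets (66.1 to 112 CPM) lay below its Bbs8 WT sets (115 to 261 CPM), as did those of 2.92% of genes there. Klf9 was 82.1 and 176 CPM (log2 -1.06, -1.49 to -0.70) with overlapping sets, in a comparison in which 3.86% of genes were over 2-fold lower. The unnamed clusters held 97 of the 204 Bbs8 KO and 35 of the 76 Bbs8 WT Klf9 UMIs of these cells. The mix of classes differed between the mice, and the part of that mix in these values was not tested.

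The promoters of these 2 Kruppel-like factors are shown because they were the factors with counting intervals below 0 in stromal cells. Each is the 250 bases before the transcription start in RefSeq on GRCm38.p6, printed 5′ to 3′ on the strand of the gene, at chr19:23140976-23141225 (plus strand) and chr4:55532476-55532725 (minus strand). Capitals mark matches to any of the motifs searched.
Klf9 promoter: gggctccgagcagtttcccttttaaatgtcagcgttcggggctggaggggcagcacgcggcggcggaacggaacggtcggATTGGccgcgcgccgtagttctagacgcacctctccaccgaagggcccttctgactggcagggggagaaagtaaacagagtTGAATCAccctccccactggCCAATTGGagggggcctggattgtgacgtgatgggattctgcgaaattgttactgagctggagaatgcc
Klf4 promoter: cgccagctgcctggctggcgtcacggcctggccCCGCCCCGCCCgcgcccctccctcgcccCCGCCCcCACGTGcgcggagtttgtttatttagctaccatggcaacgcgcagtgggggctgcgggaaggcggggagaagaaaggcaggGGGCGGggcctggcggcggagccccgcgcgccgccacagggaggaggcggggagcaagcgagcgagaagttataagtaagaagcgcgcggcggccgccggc

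The Klf9 window held 3 CCAAT boxes (CCAAT), of which the 2 nearest the start overlap on opposite strands. It also held 1 match to a relaxed AP-1 pattern (TGANTCA, any middle base), 89 to 83 bases before the start. That match reads TGAATCA, and the classical AP-1 site has C or G in the middle. The Klf4 window held 4 GC boxes (GGGCGG), of which 2 overlap by a base, and 1 E-box (CACGTG). Both strands were searched. Of 32851 mouse promoter windows of this length, 33.8% held a CCAAT box, 6.75% the relaxed AP-1 pattern, 32.7% a GC box and 6.02% an E-box. None of these matches is thus particular to the 2 genes. Also searched were the cyclic AMP response element (TGACGTCA), the C/EBP palindrome (TTGCGCAA), the EBF palindrome (TCCC, 2 bases, GGGA), the NFI palindrome (TTGGC, 5 bases, GCCAA), the PPAR direct repeat (AGGTCA, 1 base, AGGTCA), the glucocorticoid palindrome (AGAACA, 3 bases, TGTTCT) and the TATA box (TATAAA), and these letters were in neither window. They were in 1.55%, 0.164%, 0.779%, 0.0365%, 0.0335%, 0.00913% and 12.4% of all windows, in the order named. The GC content was 59.6% for Klf9 and 74% for Klf4, beside a median of 52.4% over all windows. RefSeq windows were found for 7 of the 10 factors. Cebpd, Ebf2 and Nfib are named only.

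The early C/EBP factors were unequal in the stroma. Cebpd (chromosome 16, 15887286 to 15891031, plus strand), a leucine zipper factor of the first hours of differentiation, was highest in P1-like (283 CPM, 229 to 347) and P3-like cells (239 CPM, 164.5 to 336), which overlapped each other. The next classes, P2-like (68.9 CPM, 47.5 to 96.8) and macrophage-like cells (68.9 CPM), lay apart from these. The log2 ratio of P2-like over P1-like was -2.23 (-3.09 to -1.60) in Bbs8 KO, with 5 of 5 sets higher in P1-like cells, and -1.21 (-2.45 to -0.10) in Bbs8 WT, with 3 of 5. Without each barcode set in turn, the Bbs8 WT ratio ran from -2.33 to -0.53. Between the mice, stromal sets of Bbs8 KO gave 197, 191, 157, 202 and 182 CPM. The Bbs8 WT sets gave 164, 120, 87.2, 149 and 86.6 CPM. The Bbs8 KO sets were higher but for a single overlap, and the log2 ratio of 0.54 had an interval of 0.01 to 1.14. That interval reached 0 with TMM scaling (0.39, -0.15 to 0.98), with DESeq2 size factors (0.37, -0.17 to 0.96) and without KO5_p2, KO5_p3, KO6_p2, WT3_p2, WT3_p3 or WT4_p3 (0.41 to 0.53). A difference in Cebpd was therefore not detectable with any firmness at this depth.

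Cebpb (chromosome 2, 167688915 to 167690418, plus strand), its partner in the early phase, had 10 UMIs in Bbs8 KO and 9 UMIs in Bbs8 WT stromal cells, or 15.1 and 31.6 CPM, with a log2 ratio of -0.86 (-2.52 to 0.41). Its level was highest in macrophage-like cells at 48.2 CPM (26.4 to 80.9), and no interval in its order of classes stood apart from the next. In all cells outside the stromal classes, the unnamed clusters included, Cebpb was 11.7 CPM in Bbs8 KO (29 UMIs) against 41.7 CPM in Bbs8 WT (18 UMIs), or a log2 ratio of -1.49 (-2.74 to -0.90), and the sets overlapped. T cell-like and B cell-like cells held 0 and 1 UMIs of Cebpb, and there were 885 and 898 of these cells in Bbs8 KO against 98 and 61 in Bbs8 WT. The part of these cell numbers in the ratio was not tested. Within a class the counts were small. Macrophage-like cells had 38.1 and 92.8 CPM from 9 and 5 UMIs (log2 -1.18, -3.02 to 0.64). Monocyte-like cells had 11.3 and 109 CPM from 2 and 6 UMIs (log2 -2.81, -6.62 to -0.79). The sets overlapped in both classes.

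Pparg (chromosome 6, 115360951 to 115490399, plus strand), the nuclear receptor at the centre of adipogenesis and the target of thiazolidinedione drugs, was not mainly a stromal gene in these cells. It was highest in endothelial-like cells, where PPARG is known to regulate fatty acid handling by capillaries. There it was 130 CPM in Bbs8 KO against 195 CPM in Bbs8 WT, from 34 and 12 UMIs. That log2 ratio was -0.56 (-1.57 to 0.50), and the sets overlapped. Over all cells Pparg was 31.5 and 32.1 CPM. Among the stromal subtypes it was highest in P2-like cells, at 46.0 CPM (28.8 to 69.6), beside 21.3 CPM in P1-like and 21.7 CPM in P3-like cells with intervals that overlapped. It was higher in P2-like than in P1-like cells in 7 barcode sets and lower in 0, and the other 3 sets had no Pparg UMI in either. P1-like cells held 7 UMIs in Bbs8 KO against 0 in Bbs8 WT. In all stromal cells the Bbs8 KO sets gave 53.0, 36.7, 47.1, 50.6 and 31.7 CPM. The Bbs8 WT sets gave 0, 47.8, 0, 0 and 14.4 CPM, where 3 of the 5 sets had no UMI. The sums were 29 UMIs and 3 UMIs, a plain ratio of 4.17 with a log2 interval of 0.37 to 4.42, and a log2 ratio of 1.65 with the pseudocount. Among all genes 11.3% were over 2-fold higher in Bbs8 KO.

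UMIs of other cell types in the stromal cells differed between the mice for some lists. The 8 endothelial markers summed to 227 CPM (sets 196 to 286) in Bbs8 KO against 45.7 CPM (0 to 95.6) in Bbs8 WT stromal cells, and all 4 with at least 20 UMIs were higher in Bbs8 KO. Of the immune lists, the T cell markers summed to 453 and 123 CPM, the B cell markers to 721 and 172 CPM and the macrophage markers to 556 and 193 CPM, while the monocyte markers (739 and 608 CPM) overlapped between the sets and 3 of their 6 genes with at least 20 UMIs were higher. The pericyte markers (124 and 94.9 CPM) and the mammary epithelium markers (33.3 and 38.6 CPM) overlapped too. The mitotic markers summed to 197 CPM (145 to 273) and 28.1 CPM (0 to 57.7), and the dendritic markers to 195 and 94.9 CPM with overlapping sets. The 8 adipocyte markers summed to 241 CPM (144 to 339.7) and 376 CPM, with Bbs8 WT sets spread from 0 to 1299 CPM, and of them Adipoq, Lep and Retn were at 0 UMIs. In stromal cells with no endothelial marker UMI the Pparg log2 ratio was 1.41 (0.04 to 4.16), and in those with no T cell, B cell or macrophage marker UMI it was 1.99 (0.46 to 5.67). Its interval included 0 in cells with no immediate early UMI (1.25, -0.31 to 3.88) and without the set WT4_p2 (1.12, -0.37 to 3.68), and without WT3_p2 the ratio was 2.42 (0.82 to 8.77). The difference in Pparg thus rested on few molecules, and the part of RNA from other cell types in it was not tested further.

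Cebpa (chromosome 7, 35119293 to 35121928, plus strand), which maintains Pparg in adipocytes and directs myeloid development, was highest over both mice in monocyte-like (86.0 CPM, 52.5 to 133) and macrophage-like cells (58.5 CPM, 34.1 to 93.7). In that order of classes it was 95.7 and 46.5 CPM in Bbs8 KO, but 54.5 and 111 CPM in Bbs8 WT, from 3 and 6 UMIs. In the stroma it was 33.4 CPM (19.1 to 54.3) in P2-like and 6.09 CPM (0.738 to 22.01) in P1-like cells, higher in P2-like cells in 6 sets and lower in 1. The log2 ratio of P2-like over P1-like over both mice was 1.79 (0.37 to 5.62), from 16 and 2 UMIs. Stromal levels of 16.7 CPM in Bbs8 KO against 35.1 CPM in Bbs8 WT, from 11 and 10 UMIs, gave a log2 ratio of -0.89 (-2.45 to 0.32). Of P2-like cells thinned to 200 UMIs, 5 of Bbs8 KO and 1 of Bbs8 WT had a Pparg UMI and 3 and 5 had a Cebpa UMI. Their shares with a UMI of Fabp4, Lpl or Cd36, target genes of lipid uptake, had intervals too wide to read. Lpl was found in 2 of the 5 Bbs8 KO cells with Pparg (5.27 to 85.3%) and in 40.1% (36.1 to 44.2) of the 576 without.

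Read across the subtypes with both mice summed, 2 of the 8 factors with at least 20 UMIs (Cebpd and Klf4) were over 2-fold lower in P2-like than in P1-like cells and 0 were higher, beside 6.37% and 10.3% of all genes. Against P3-like cells, 3 of 8 (Cebpd, Ebf2 and Nfib) were over 2-fold lower in P2-like cells and 0 higher, beside 5.74% and 14.1%. Their log2 ratios were -2.09, -1.25 and -1.45 within Bbs8 KO, but -0.82, -1.27 and -0.20 within Bbs8 WT. Pparg, with 29 and 25 UMIs in these contrasts, was 2.15-fold and 2.12-fold higher in P2-like cells by the plain ratio and short of the mark with the pseudocount (log2 0.95 and 0.93), with intervals that included 0. Of 7 factors compared between P3-like and P1-like cells, 1 was over 2-fold higher in P3-like cells (Nfib) and 0 lower, beside 7.26% and 10.7%. Klf4 lay just inside that mark, with a log2 ratio of -0.997. Within Bbs8 WT, Klf4 was instead 182 CPM in P2-like and 126 CPM in P3-like cells (log2 0.51, -0.77 to 2.10), whereas within Bbs8 KO the ratio of P2-like over P3-like was -1.86 (-2.93 to -0.96). For Klf9 the ratio of P2-like over P1-like cells was 0.94 (0.35 to 1.61) in Bbs8 KO against -0.19 (-0.72 to 0.34) in Bbs8 WT. Differences between the mice in these ratios were not tested.

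**Figure D3:**
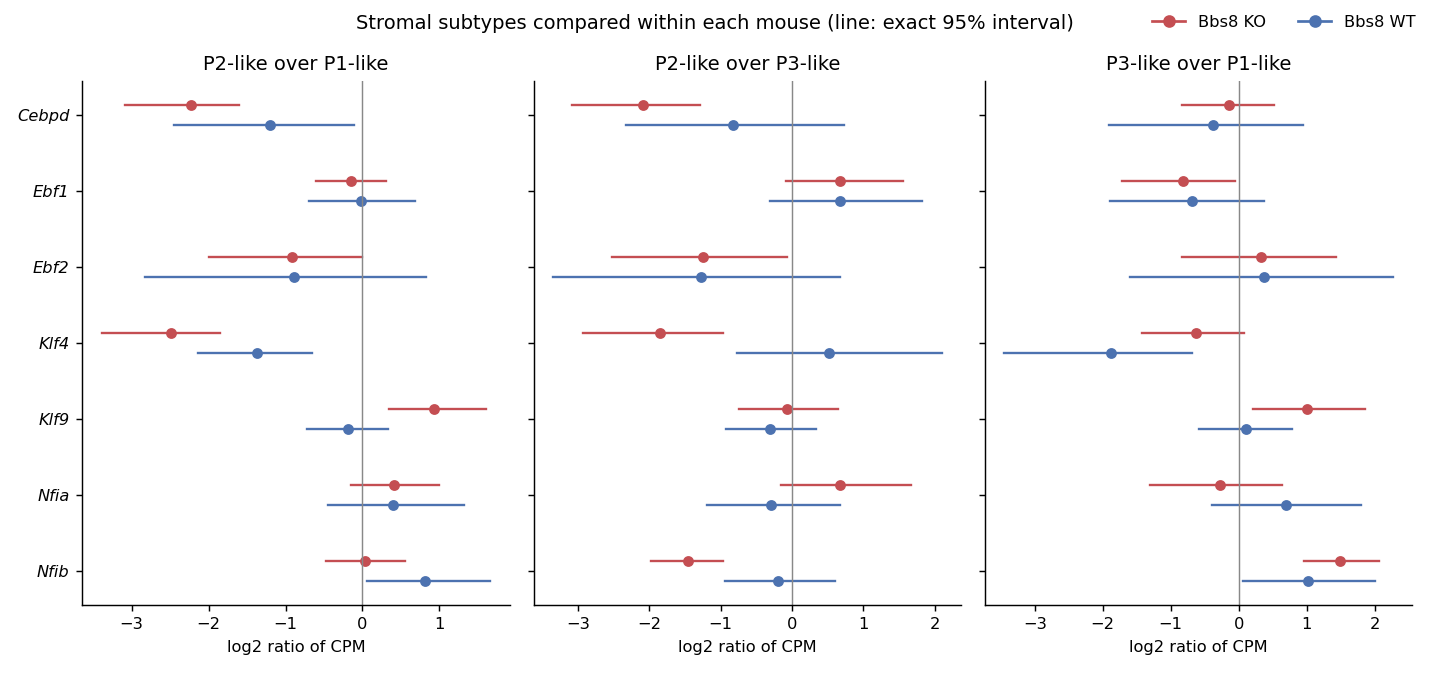
Log2 ratio of CPM (x axis) between stromal subtypes within Bbs8 KO and within Bbs8 WT for the 7 factors with at least 50 UMIs in stromal cells; points use a pseudocount of 5 CPM and lines are exact 95% intervals of the plain ratio. Cebpd and Klf4 lay below 0 in P2-like over P1-like cells in both mice, and Nfib lay above 0 in P3-like over P1-like cells in both.

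The early B cell factors differed in how widely they were found. Ebf1 (chromosome 11, 44617317 to 45008091, plus strand), named for its role in B lymphocytes, was highest in pericyte-like cells (454 CPM, 288 to 681) and was 343 CPM (286 to 409) in B cell-like, 323 CPM in P1-like, 301 CPM in P2-like and 188 CPM in P3-like cells. None of these neighbours lay apart. In P3-like cells it was 1.72-fold lower than in P1-like cells, with 8 of 10 sets in that direction and a log2 ratio over both mice of -0.76 (-1.46 to -0.15). Stromal levels of 282 CPM in Bbs8 KO against 316 CPM in Bbs8 WT gave a log2 ratio of -0.16 (-0.54 to 0.21).

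Ebf2 (chromosome 14, 67233292 to 67430918, plus strand), which selects brown and beige precursors, was the most restricted of the 10 to the stroma by its share of UMIs. It was 116 CPM (66.2 to 188) in P3-like, 91.4 CPM (61.7 to 131) in P1-like and 46.0 CPM (28.8 to 69.6) in P2-like cells. Among the other named classes it was at most 9.94 CPM, pericyte- and endothelial-like cells apart. In the unnamed clusters it was 26.2 CPM. Over both mice the log2 ratio of P2-like over P3-like was -1.25 (-2.33 to -0.31) and that of P2-like over P1-like was -0.92 (-1.86 to -0.15). The direction of P2-like over P3-like was not firm: within Bbs8 KO it was -1.25, but 0.11 (-1.31 to 1.87) when the factors were allowed to shape the clusters, and within Bbs8 WT it was -1.27, but 0.04 without the set WT4_p3. Its stromal level was 75.7 CPM in Bbs8 KO against 63.2 CPM in Bbs8 WT, or a log2 ratio of 0.24 (-0.54 to 1.13). The Bbs8 WT sets ranged from 0 to 262 CPM and enclosed those of Bbs8 KO (58.7 to 116 CPM).

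Nfia (chromosome 4, 97772734 to 98118874, plus strand), which acts with PPARG at brown fat enhancers, was similar in the 3 stromal subtypes, at 240 CPM (198 to 288) in P2-like, 203 CPM in P3-like and 180 CPM (137 to 232) in P1-like cells, with intervals that overlapped. It was 158 CPM in pericyte-like and 102 CPM in endothelial-like cells. The stromal levels were 200 CPM in Bbs8 KO against 246 CPM in Bbs8 WT, or a log2 ratio of -0.29 (-0.73 to 0.14). Nfib (chromosome 4, 82290173 to 82705750, minus strand), its relative, was highest in P3-like cells, at 587 CPM (466 to 729), beside 284 CPM in P2-like and 229 CPM (180 to 286) in P1-like cells. It was higher in P3-like than in P1-like cells in 9 of 10 sets. The log2 ratio of P3-like over P1-like was 1.49 (0.96 to 2.06) in Bbs8 KO against 1.01 (0.06 to 2.01) in Bbs8 WT.

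Nfib also reached 394 CPM in endothelial-like cells and 258 CPM in mammary epithelium-like cells, and it was at most 34.9 CPM in the immune classes. Stromal levels of 295 and 341 CPM gave a log2 ratio of -0.20 (-0.57 to 0.16) between the mice. Within P2-like cells Nfib was 239 CPM in Bbs8 KO against 383 CPM in Bbs8 WT (log2 -0.67, -1.19 to -0.16), and within P3-like cells 664 and 440 CPM (log2 0.59, -0.14 to 1.39). The sets of Nfib overlapped between the mice in both subtypes. The log2 ratio of P2-like over P3-like was -1.45 (-1.98 to -0.96) in Bbs8 KO against -0.20 (-0.94 to 0.60) in Bbs8 WT, and the difference between these ratios was not tested.

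**Figure D4:**
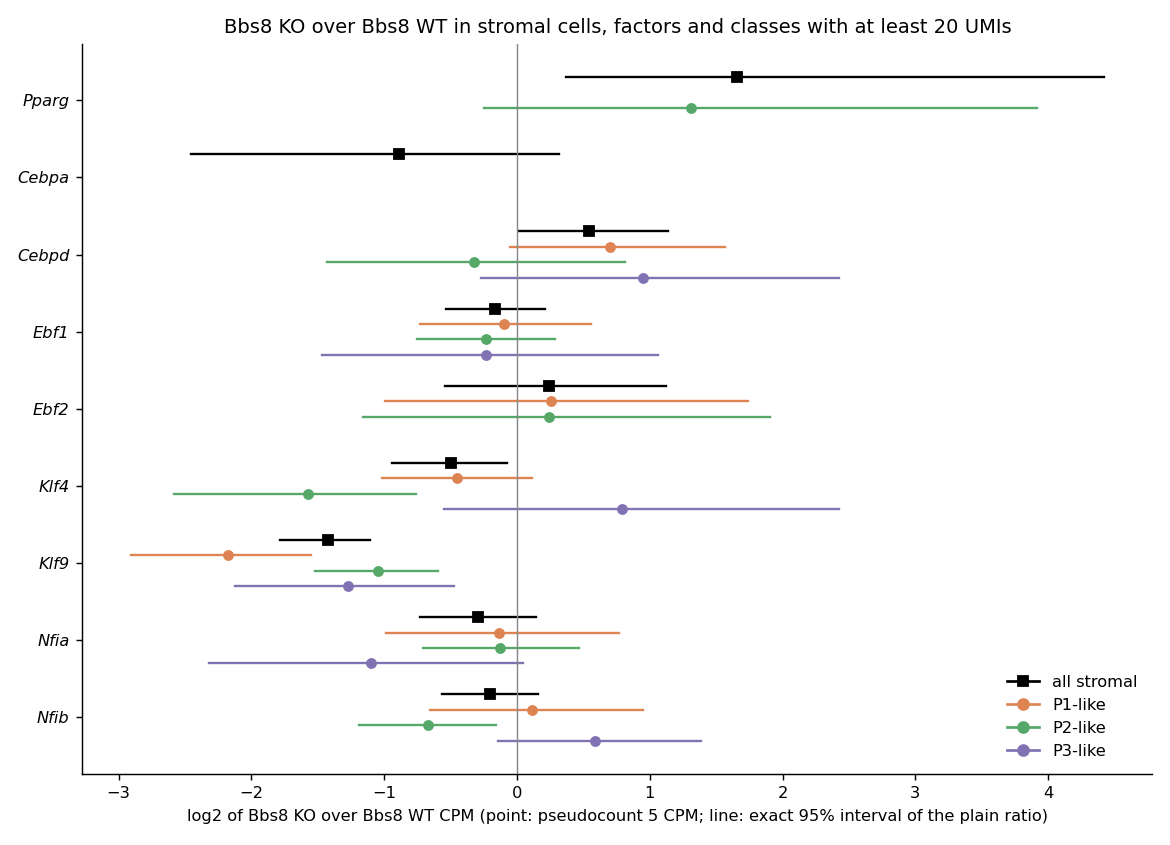
Log2 of Bbs8 KO over Bbs8 WT CPM (x axis) for factors and stromal classes with at least 20 UMIs; points use a pseudocount of 5 CPM and lines are exact 95% intervals of the plain ratio, which cover counting error only. All 4 Klf9 lines lie below 0, and most lines of the other factors cross 0.

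Over the 9 factors with at least 20 stromal UMIs, 3 were higher and 6 lower in Bbs8 KO, with a median log2 ratio of -0.20, while 57.9% of the 6483 genes were higher and 42.1% lower, with a median of 0.12. Of the genes with at least 200 UMIs the median was -0.05. The intervals of 2 lay below 0 (Klf9 and Klf4) and those of 2 above 0 (Pparg and Cebpd), beside 7.22% and 11.5% of all genes. The other lists were read in the same way. Of 16 other positive regulators with at least 20 UMIs, 8 were higher and 8 lower (median 0.03), 1 of them over 2-fold higher and 1 over 2-fold lower with the pseudocount, beside 11.3% and 2.68% of all genes. Stat5b (57.6 and 28.1 CPM, log2 0.92, -0.09 to 2.35) passed 2-fold in the plain ratio only. Those past the mark were Med1, a Mediator subunit (65.1 and 28.1 CPM, log2 1.08), and Rxra, the partner receptor of PPARG (31.8 and 73.8 CPM, log2 -1.10, -2.16 to -0.27). Among the genes with at least 50 UMIs, Egr2, which is induced at the start of differentiation, was 168 and 84.3 CPM (log2 0.95, 0.35 to 1.70) and Klf6 182 and 119 CPM (log2 0.59). Without the Bbs8 WT set WT4_p2 the ratios of Med1, Egr2 and Klf6 were 0.61, 1.74 and 0.25. The coactivator Ncoa1 was 69.7 and 102 CPM (log2 -0.52, -1.25 to 0.17).

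Of 13 negative regulators, 8 were higher and 5 lower in Bbs8 KO (median 0.24). The 2 past 2-fold were both higher, beside 11.3% of all genes higher and 2.68% lower, and both low in count: Zfp521, an antagonist of EBF factors (40.9 and 10.5 CPM from 27 and 3 UMIs, log2 1.56, 0.26 to 4.32), and Twist2 (28.8 and 7.03 CPM from 19 and 2 UMIs, log2 1.49, -0.02 to 5.18). Without the Bbs8 WT set WT4_p2 the ratios were 1.02 (-0.48 to 3.58) for Zfp521 and 1.01 (-0.76 to 4.44) for Twist2. They reached 3.20 for Zfp521 without WT4_p3 and 2.76 for Twist2 without WT3_p3. Of the members with at least 50 UMIs, the largest ratios were those of Nr2f2 (log2 -0.60, -1.46 to 0.18), Foxo1 (-0.38), Klf2 (0.37) and Klf3 (0.30), whose intervals all included 0.

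Of 26 genes of the adipocyte program, 7 had at least 20 stromal UMIs. Scd1, the desaturase of fatty acid synthesis, was 171 CPM in Bbs8 KO against 80.8 CPM in Bbs8 WT, or a log2 ratio of 1.04 (0.43 to 1.80), and its Bbs8 KO sets (132 to 197 CPM) lay above its Bbs8 WT sets (0 to 114 CPM). Such separation upwards was seen for 3.96% of all genes. Lpl, the lipoprotein lipase that frees fatty acids for uptake, was 2428 and 3868 CPM (log2 -0.67, -0.78 to -0.56) with overlapping sets, and 1 set decided the direction of Car3. It was 230 and 376 CPM (log2 -0.70), the Bbs8 WT sets (0 to 1299 CPM) enclosed the Bbs8 KO sets (121 to 332.5 CPM), 90 of the Bbs8 WT UMIs came from the set WT4_p3, and without that set the log2 ratio was 1.49. Plin2, a coat protein of lipid droplets, was 256 and 186 CPM (log2 0.45, 0.01 to 0.93). The median of the 7 was -0.02.

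Of the 12 glucocorticoid-responsive genes, a list included because Klf9 is such a gene, 11 had at least 20 UMIs, 4 higher and 7 lower in Bbs8 KO, with a median of -0.42 that turned to 0.46 over genes with at least 100 UMIs. The latter rested on 3 genes (Errfi1, Nfkbia and Mt1). The genes past 2-fold were both lower, beside 2.68% of all genes lower and 11.3% higher. Zbtb16, a zinc finger gene strongly induced by glucocorticoids, was 12.1 CPM (8 UMIs) in Bbs8 KO and 239 CPM (68 UMIs) in Bbs8 WT, with sets of 0 to 23.7 CPM and 191 to 349 CPM and a log2 ratio of -3.83 (-5.57 to -3.24). Such separation downwards was seen for 1.31% of all genes. Fkbp5, a chaperone of the glucocorticoid receptor, was 43.9 and 94.9 CPM (log2 -1.03, -1.92 to -0.30) with overlapping sets. Errfi1 and Sgk1 were higher instead, at 430 and 249 CPM (log2 0.77, 0.41 to 1.18) and at 90.9 and 45.7 CPM (log2 0.92, 0.11 to 1.98, or 0.47 without the Bbs8 WT set WT4_p2). The receptor gene itself, Nr3c1, was 241 and 221 CPM (log2 0.12, -0.31 to 0.57).

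Of 14 immediate early genes 6 were higher and 8 lower (median -0.22). Dusp1 was over 2-fold higher, beside 11.3% of all genes, at 57.6 and 21.1 CPM (log2 1.26, 0.20 to 2.98), whereas Fos (93.9 and 176 CPM, log2 -0.87), Junb (66.6 and 116 CPM, log2 -0.76) and Egr1 (179 and 292 CPM, log2 -0.69) were lower with intervals below 0. Klf9 is also an output of the circadian clock, and the time of day at which each mouse was killed is not in the labels. Of 19 clock genes, a list added after the values were seen, 6 had at least 20 UMIs. These were lower in Bbs8 KO, beside 42.1% of all genes, from Clock (47.0 and 94.9 CPM, log2 -0.94, -1.81 to -0.21) to Nfil3 and Bhlhe41 (both -0.18). None was past 2-fold with the pseudocount, although Clock was so in the plain ratio, and Rora was 69.7 and 94.9 CPM (log2 -0.42, -1.16 to 0.30). The 11 in the table with fewer UMIs were left out of that count, and with the pseudocount all of them but Per2 had a ratio above 0. Among these, Dbp had 15 UMIs in Bbs8 KO against 0 in Bbs8 WT (lower bound of the log2 interval 0.63), and Tef had 16 against 1 (log2 interval 0.10 to 8.18). The part of a clock phase, a hormone level or the handling of the tissue in the level of Klf9 was not tested, and with a single mouse described per genotype these and the genotype cannot be told apart.

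**Figure D5:**
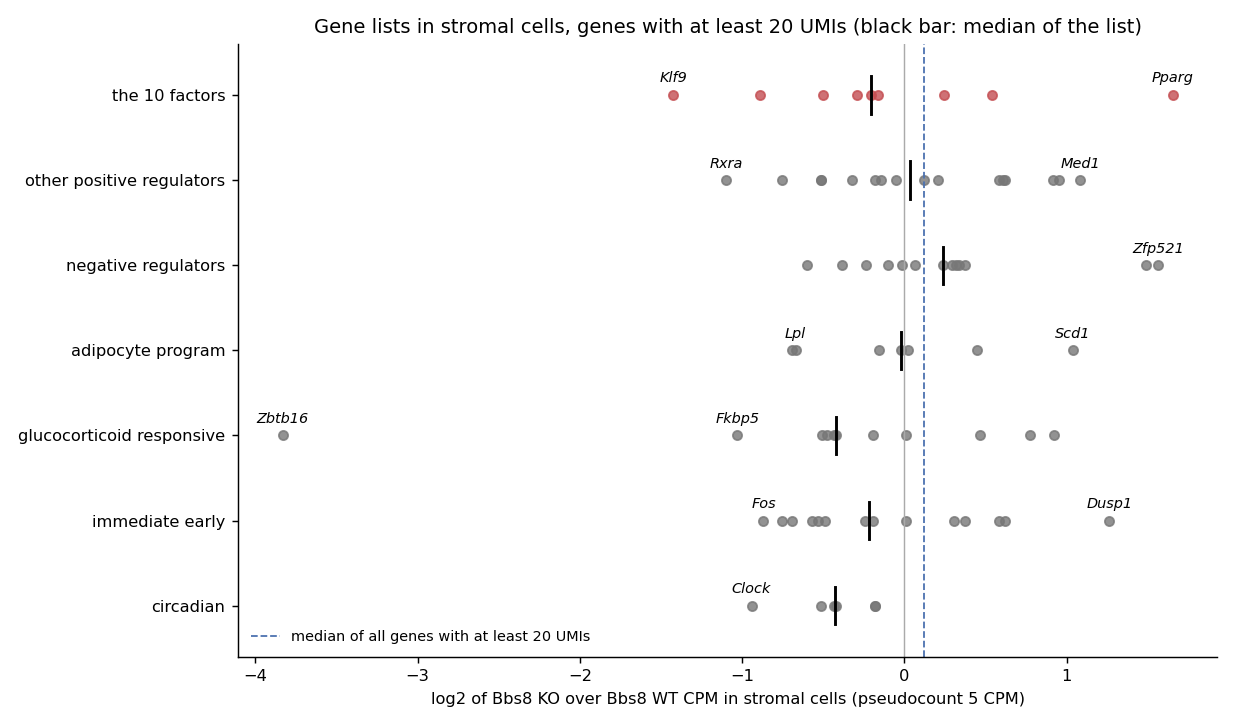
Log2 of Bbs8 KO over Bbs8 WT CPM in stromal cells (x axis, pseudocount of 5 CPM) for the 10 factors (red, 9 shown) and 6 other gene lists (grey); each point is a gene with at least 20 UMIs, black bars are list medians and the dashed line is the median of all such genes. Zbtb16 (-3.83) lies farthest to the left, and Klf9 (-1.42) and Pparg (1.65) are the outermost of the 10 factors.

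The factors also differed in which genes followed their pattern. Over 24 points (12 classes in 2 mice), genes with at least 200 UMIs were ranked by Pearson's r of log2(CPM + 5) with each factor, as a description in which classes of a mouse share their libraries and small classes add counting noise. Cebpd was most like Mxra7 (0.921), Mfap5 (0.895) and Wipi1 (0.883). Klf4 was most like Snx18 (0.884), Nrp1 (0.879) and Ctnna1 (0.861). Klf9 was most like Nenf (0.911), Rhoj (0.879) and the P2 marker Sparcl1 (0.878), and Nfia like Rhoj (0.957), Itgb5 (0.951) and Col6a2 (0.938). Nfib was most like Dlc1 (0.934), Phldb1 (0.931) and Arhgef12 (0.931). Ebf1, found in stromal, pericyte- and B cell-like cells, had the lowest leading values, with Tbrg1 (0.752), C1qtnf6 (0.746) and Epb41l2 (0.742).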

How the data were processed

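SVF cells of the iWAT were profiled by Seq-Well S3. The deposited values were UMI counts by gene and cell. According to the methods of the study and the processing notes, the authors demultiplexed reads with bcl2fastq 2.20, aligned them with STAR on mm10, evened out sequencing depth and kept cells of limited gene number and mitochondrial share. The sources used here do not give the place of the deposited counts relative to the depth step. Cells had 101 to 994 genes, and no further filter was applied. The 10 factors and the gene lists were chosen with earlier results of these data known.

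Cells were assigned to genotype and barcode set by column name, with 0 columns unmapped. The labels list 5 samples per genotype, and the codes could not be matched to single samples. Seurat 5.3.0 under R 4.3.3 was used for anchor integration of the sets (variable features 2000, dimensions 30, k.filter 100, k.weight 50). The 10 factors were left out of the features, of which 3 (Ebf2, Klf4 and Nfia) would have been among them. Louvain clustering used a resolution of 0.8, and groups of under 60 cells were left out. A cluster took the name of the marker list with the highest mean log2 fold (pseudocount of 20 CPM) if that mean exceeded 1, at least 3 markers passed and it led the next list by more than 1. Stromal clusters were divided by the P1, P2 and P3 lists at 0.5. The naming thresholds were chosen with the clusters in view, and rebuilt names may differ from those of the study. Scrublet in scanpy 1.11.5 marked 50 of 10914 cells (0.458%), too few to be a working call, so no cell was removed as a doublet. Leaving out the 6% of cells with the highest scores served as an alternative. Of 10847 barcodes, 36 were in more than 1 set. Of these, 4 were in 7 or more sets, with 37 cells of which 3 were stromal.

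Summed UMIs were scaled to CPM of the class total. Ratios are log2 with a pseudocount of 5 CPM, with exact conditional 95% intervals of the plain ratio. Background shares are over genes with at least 20 UMIs. Floors are 3 counts. Interval coverage was tested on simulated data. TMM factors (edgeR 4.0.16) and DESeq2 1.42.0 size factors served as other scalings only. In stromal cells they shifted log2 ratios by -0.16 and -0.18. Gene positions are from GENCODE vM21. All 10 factors are named. Of each other list, up to 4 genes with at least 50 stromal UMIs and the largest ratios are named, with those past 2-fold. The circadian list was added after the values were seen, and Nr3c1 was named after its value was seen.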

Additional observations from a re-analysis of the deposited data

Results flagged for a closer look

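In each mouse the 5 barcode sets were searched for a stromal level that stood apart from the other 4, for each of the 10 factors. Of 20 such groups 1 was found, the number that chance gives at 1 in 20. Ebf2 was 262 CPM in the set WT3_p3 of Bbs8 WT, from 6 UMIs, while the other Bbs8 WT sets ran from 0 to 61.4 CPM. WT3_p3 was the smallest set, with 60 stromal cells and 22936 stromal UMIs.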

How the results depend on the processing

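No paired analysis was possible because no result comes from a test across samples. The codes of both genotypes share p1, p2 and p3, which could not be matched to the replicate numbers of the labels. Of 1790 values from alternative settings over 122 results, 1775 lay within the counting interval, or for lists the range over barcode sets, of the reported value. This count is no measure of firmness, since the intervals were wide where UMIs were few and the alternatives reused most of the same cells. A value could turn in direction and still lie within, as for Cebpa in P1-like cells (log2 -0.83, alternatives from -2.06 to 0.92). In stromal cells the Klf9 log2 ratio ran from -1.70 to -1.31 over its alternatives, and from -1.47 to -1.31 without each barcode set in turn, and every interval lay below 0. In P3-like cells its interval included 0 with cells of at least 200 genes (upper bound 0.06) and with cells without immediate early UMIs (0.07). The Klf9 share difference of -12.4 percentage points was -6.97 after thinning. Thinning leaves fewer UMIs per cell and lowered the share in both mice, from 8.22% to 3.05% in Bbs8 KO and from 20.6% to 10.02% in Bbs8 WT. List medians moved with the genes included: with at least 100 UMIs per gene they were 0.46 for glucocorticoid-responsive genes, -0.057 for negative regulators and -0.49 for immediate early genes, and with no minimum 0.38 for the adipocyte program. The glucocorticoid-responsive median was -0.57 with TMM and -0.59 with DESeq2 factors. Between subtypes in Bbs8 KO, Nfia in P2-like over P1-like cells was -0.17 at resolution 0.4, Klf9 in P2-like over P3-like cells was 0.65 without integration, and Ebf2 in P2-like over P3-like cells turned to 0.11 (-1.31 to 1.87) with the factors among the features, and the cause was not tested. Without each barcode set in turn, Car3 ran from -1.26 without WT4_p2 to 1.49 without WT4_p3 and turned in direction only there, and Egr2 reached 1.74 without WT4_p2. Dbp and Tef were not part of these omissions. Of the 18 other named genes of the other lists with an interval on 1 side of 0, 9 kept it there without every set. Those that did not were Med1, Klf6, Zfp521, Car3, Plin2, Sgk1, Dusp1, Junb and Clock. Added after seeing the data were these omissions for the other lists, the subsets of cells without marker UMIs, the unnamed cluster with a weak stromal score counted as stromal, and the circadian list. Precision was limited by UMIs: Pparg, Cebpa and Cebpb had 19 to 32 in stromal cells.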

Other observations

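The 4 unnamed clusters, with 3743 Bbs8 KO and 498 Bbs8 WT cells, also held the factors. Klf9 was 104 CPM in Bbs8 KO against 265 CPM in Bbs8 WT there, a log2 ratio of -1.31 (-1.93 to -0.75). The ratios of Klf4, Nfia and Nfib were -0.99 (-1.71 to -0.29), -0.97 (-1.88 to -0.10) and -0.91 (-1.53 to -0.30). These clusters were mixed differently in the mice. The cluster with a weak stromal score held 1143 of the Bbs8 KO and 219 of the Bbs8 WT cells, and the largest cluster 1559 and 134. The part of that mix in these ratios was not tested. Among stromal cells thinned to 200 UMIs, UMIs of 2 or more of the 10 factors were found in 3.66% of the Bbs8 KO and in 3.58% of the Bbs8 WT cells.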
